A study of Mus musculus with 12 samples.

Results

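The genes described here mark the epithelium of the mammary gland, whose ducts grow through the inguinal fat pad of the mouse. The 43 members were chosen by name, with earlier results of these data known. They are genes of luminal cells, basal cells, epithelial junctions, epithelial regulation and milk. All 43 were found among the 24091 genes of the deposited tables of inguinal white adipose tissue (iWAT). The study sequenced iWAT RNA from 12 mice, with 3 libraries in each of 4 groups. bBMKO mice carried floxed alleles of Bmal1, the clock transcription factor, with a Prx1-Cre transgene that acts in the progenitors and adipocytes of subcutaneous fat, and bBMCtr mice were floxed littermates without the transgene. Ambient mice were kept at 22 °C by the series text and at 21 °C by the methods, and 6 weeks of age is given for tissue taken at that temperature. Cold mice were kept at 10 °C for 2 weeks, with an age of 10 to 12 weeks given for cold acclimation. Sex is not in the sample records, and for the sequenced fat the study's legends name male mice in one place and female mice in another. Whether any epithelial cell lost Bmal1 was not tested.

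The mammary duct is a tube of luminal cells, which carry the simple keratins and the hormone receptors, around which lies a basal layer of myoepithelial cells with the stratified keratins Krt5 and Krt14. Estrogen, progesterone and prolactin drive its growth, in part through amphiregulin (Areg) and the ETS factor Elf5, and the caseins and whey acidic protein are made in quantity only in pregnancy and lactation. The fat pad of a virgin female thus holds a ductal tree in its adipose tissue, together with a lymph node, and that of a male holds little or none.

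Libraries held between 17887795 and 21436282 counts per library (median 19481002.5). Xist, which females transcribe from the inactive X chromosome, was read between 1313 and 1518 CPM (read counts per 1e6 of the TMM-scaled library total) in the 6 ambient libraries and between 0.525 and 2.98 CPM in the 6 cold libraries. Ddx3y of the Y chromosome was read between 97.2 and 128 CPM in the cold libraries, at 0 to 1 count in 5 ambient libraries and at 89 counts in ambient bBMKO library 2. Temperature and sex-linked expression therefore cannot be told apart. Arntl, which encodes Bmal1, was read between 3.77 and 10.7 CPM in the bBMCtr libraries and between 13.5 and 19.6 CPM in those labelled bBMKO, over the whole gene with its intact exons, so these counts do not check the deletion. Ambient bBMCtr library 3 stood apart by its hair follicle keratins: Krt25, Krt27 and Krt71 summed to 60.8 CPM there and to at most 0.345 CPM in the other 11 libraries. Results that rest on that library or on ambient bBMKO library 2 are given with and without them.

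The epithelium was read in all 6 ambient libraries. Of the 43 members, 41 were above 0.1 FPKM (fragments per kilobase of transcript, scaled to the library total) in every ambient library, and the others were the milk genes Wap and Csn2. Per length, the luminal keratins led, with ambient means of 191 FPKM for Krt19, 147 FPKM for Krt18, 52.2 FPKM for Krt8 and 47.7 FPKM for Krt7. Epcam, a surface adhesion molecule of simple epithelia, followed with 47.2 FPKM, Spint2 with 38.4 FPKM and Prlr with 35.8 FPKM. The basal keratins were lower, at 17.8 FPKM for Krt5 and 16.0 FPKM for Krt14, and Ovol1 was lowest of the 41 at 0.359 FPKM.

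The summed level of the 43 members was 2231, 3369 and 4580 CPM in ambient bBMCtr libraries 1, 2 and 3 and 4203, 3248 and 3845 CPM in ambient bBMKO libraries 1, 2 and 3. The bBMCtr libraries alone spanned a wider range than the bBMKO libraries, which lay within it. Of the 41 tested members, 26 were lowest in bBMCtr library 1 among the 6 ambient libraries and 27 were highest in bBMCtr library 3. Both held for 16 of the 41. The total did not separate the genotypes. In whole tissue, fewer cells of a type and less RNA per cell cannot be told apart.

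**Figure D1:**
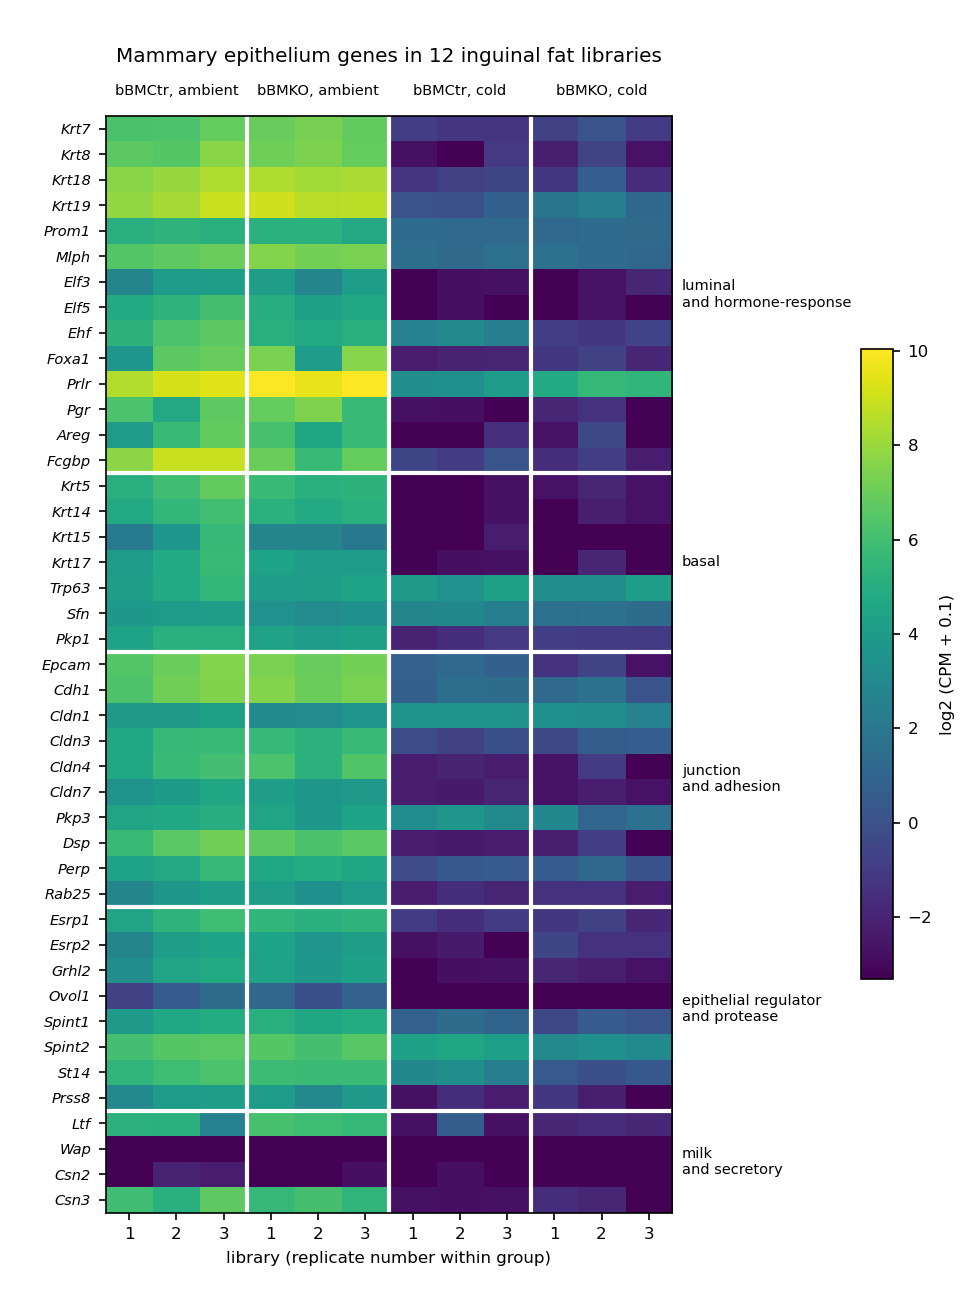
Each row is a member gene and each column a library, with replicate numbers under the 4 groups of 3, and the color gives log2 (CPM + 0.1). The 6 ambient columns are bright for all members but Wap, Csn2 and the lowly read Ovol1, while the 6 cold columns are dark for most and keep some signal for Trp63, Cldn1, Spint2, Pkp3 and Prlr.

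Between genotypes at ambient temperature, 2 of the 41 tested members were higher in bBMKO and 7 were lower (edgeR's quasi-likelihood test with a fold change over 1.5, p under 0.05 and adjusted p under 0.25). Over all 15413 genes tested, 3.88% were higher and 4.75% lower by the same rule. The members were chosen with earlier results of these data known, so the shares are a description and no independent test. Fcgbp, Sfn and Cldn1 are among the genes of matrix-related processes that the study's own heat map of these groups shows. The higher members were Mlph and Prlr. The lower members were Ehf, Fcgbp and Elf5 of the luminal list, Krt15, Sfn and Pkp1 of the basal list, and Cldn1 of the junction list. The median log2 fold change was −0.087 over the members and −0.0094 over all genes. The genotypes did not overlap for 8 of the 41 (Mlph, Prlr and Ltf higher, Ehf, Fcgbp, Sfn, Pkp1 and Cldn1 lower), against 21.1% of all genes tested. At an adjusted p under 0.05 without a fold change minimum, 4 members passed, namely Ehf, Fcgbp, Mlph and Sfn, with 4.07% of all genes. Without bBMKO library 1 the count was 4 (Ehf, Fcgbp, Pkp1 and Sfn), with 3.41% of all genes called in that fit, and without bBMKO library 2 it was 6, with 9.53%. Without bBMCtr library 3 and bBMKO library 2 together, a choice made after seeing the data, 6 members were higher and 2 were lower. The higher ones were Cldn4, Foxa1, Krt19, Krt7, Mlph and Prlr, and the lower ones Ehf and Fcgbp, with 15.2% of all genes called in that fit.

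**Figure D2:**
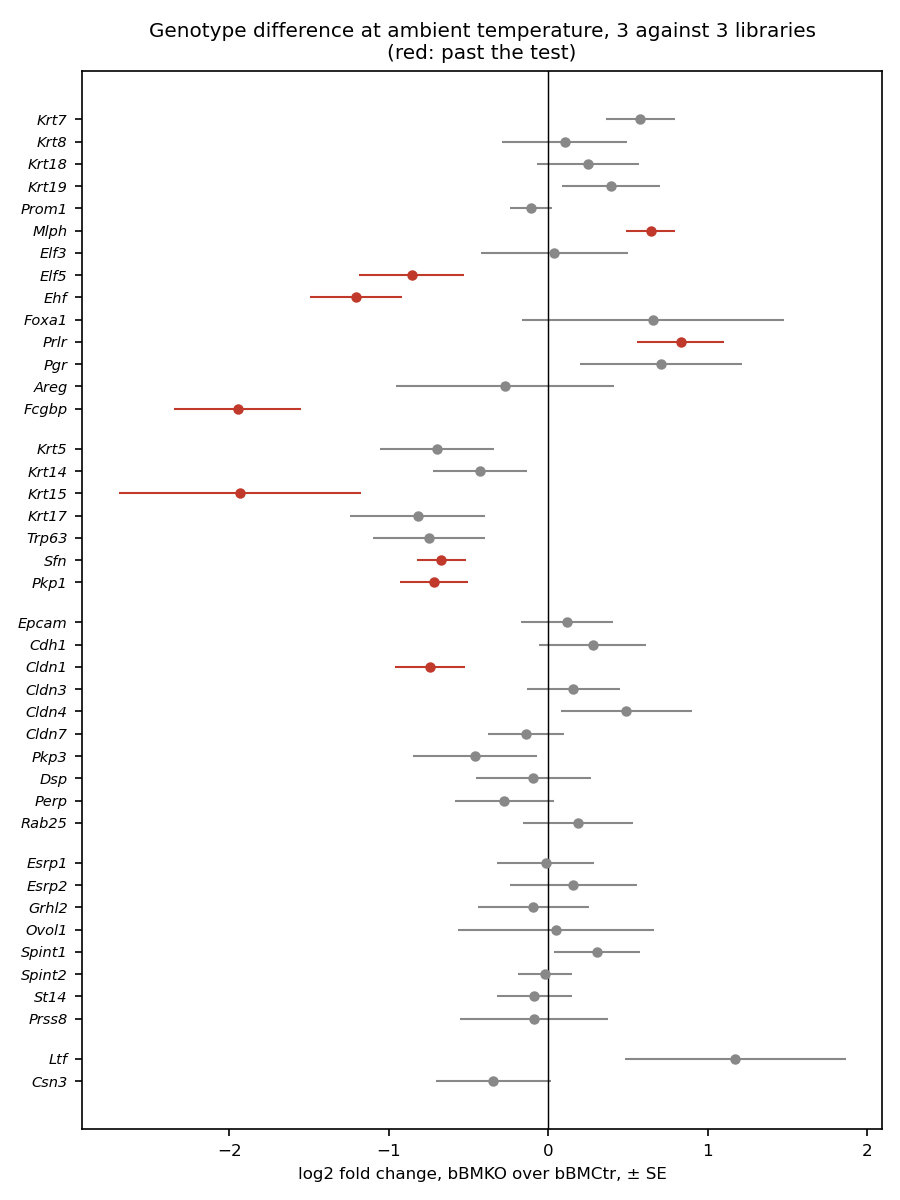
The horizontal axis gives the log2 fold change of bBMKO over bBMCtr at ambient temperature with its standard error for the 41 tested members, grouped by list, 3 libraries in each genotype; red marks members past the test. All 7 basal members lie left of 0, while the epithelial regulators and proteases stay near it.

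Among the luminal genes, the simple keratins did not pass the test. Krt19 was read at 230, 302 and 483 CPM in bBMCtr libraries 1 to 3 and at 529, 394 and 408 CPM in bBMKO libraries 1 to 3 (log2 fold change 0.39, SE 0.31, adjusted p = 0.478). Krt18, its usual partner Krt8 and Krt7 had log2 fold changes of 0.25 (SE 0.32), 0.10 (SE 0.39) and 0.58 (SE 0.22, adjusted p = 0.168). For each of these 4 keratins bBMCtr library 3 lay within or above the bBMKO range. Krt8 changed sign with library size alone as the scaling, which shifted the median of all genes to −0.13. Without bBMCtr library 3, Krt7 (0.83, adjusted p = 0.0346) and Krt19 (0.75, adjusted p = 0.127) passed as higher.

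Fcgbp, a secreted mucin-like protein that binds the Fc part of IgG, lies at chr7:28071236-28120864 of mm10 and had the largest fold change of the members tested. It was read at 209.8, 478 and 481 CPM in the bBMCtr libraries and at 133, 52.3 and 118 CPM in the bBMKO libraries. Every bBMKO library was below every bBMCtr library, and the mean fell from 389.8 ± 156 CPM to 101 ± 42.9 CPM (SD, n = 3 each), a log2 fold change of −1.95 (SE 0.40, adjusted p = 0.0258). The call held under all 19 alternatives run, at −2.26 to −1.45.

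Ehf, an ETS factor of epithelia (chr2:103263433-103303196), was read at 39.3, 76.6 and 103 CPM in the bBMCtr libraries and at 33.9, 27.4 and 33.6 CPM in the bBMKO libraries. The bBMKO libraries lay close together under all bBMCtr libraries, of which library 1 was nearest. The log2 fold change was −1.204 (SE 0.29, adjusted p = 0.0459), and it passed under all 19 alternatives run, at −1.52 to −0.77. Elf5, the ETS factor of luminal progenitors and alveolar differentiation, lies beside Ehf (chr2:103412098-103450988). Its levels were 28.3, 40.9 and 68.9 CPM in bBMCtr and 31.5, 19.0 and 25.8 CPM in bBMKO (log2 fold change −0.86, SE 0.33, adjusted p = 0.178). bBMKO library 1 overlapped with bBMCtr library 1, and the call was lost without bBMCtr library 2 (−0.92) or 3 (−0.44), without bBMKO library 1 (−1.04), 2 (−0.67) or 3 (−0.87), and with only the ambient groups in the fit (adjusted p = 0.34). The third member of this ETS family, Elf3, was at 6.60 to 17.6 CPM with a log2 fold change of 0.04 (SE 0.46, adjusted p = 0.971).

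Prlr, the prolactin receptor (chr15:10177238-10349180), was read at 362, 573 and 672 CPM in the bBMCtr libraries and at 1040, 770.4 and 1049 CPM in the bBMKO libraries. Every bBMKO library was above every bBMCtr library (log2 fold change 0.83, SE 0.27, adjusted p = 0.124). The call was lost without bBMCtr library 1 (0.60, adjusted p = 0.308), without bBMKO library 1 (0.76, adjusted p = 0.331) and with only the ambient groups in the fit (0.80, adjusted p = 0.253). The 10 listed adipocyte markers were also higher in sum, at 17180 to 21650 CPM in bBMCtr and 25200 to 29880 CPM in bBMKO. Of the 10, 2 passed as higher, Adipoq and Retn. Relative to Adipoq within each library, Prlr was at 0.334, 0.306 and 0.399 in bBMCtr and 0.369, 0.398 and 0.384 in bBMKO, and these ranges overlap. Relative to Epcam, the ranges of Prlr did not overlap. In the cold libraries the adipocyte markers summed to 26430 to 44910 CPM, while Prlr was at 9.60 to 47.8 CPM. Which cells the Prlr difference came from was not tested.

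Mlph, melanophilin, which links Rab27a vesicles to myosin (chr1:90915100-90951142), was read at 89.3, 106 and 126 CPM in the bBMCtr libraries and at 185, 154 and 163 CPM in the bBMKO libraries. The genotypes did not overlap, with a log2 fold change of 0.64 (SE 0.15, adjusted p = 0.0453). Its fold change lay near the minimum of 1.5, and the call ended without bBMCtr library 1 (0.51), without bBMKO library 1 (0.56) and with library size alone (0.53). Prom1 (CD133), at 26.9 to 40.8 CPM over the ambient libraries, had a log2 fold change of −0.11 (SE 0.13, adjusted p = 0.662).

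The promoter of Mlph is shown because it was the only member promoter entry with the E-box CACGTG that Bmal1 binds with Clock. RefSeq (GRCm38.p6) gave promoter entries for 27 of the 43 members, 32 entries in all, and the 250 bases before the start were searched on both strands. The E-box was in 1 of the 32 member entries (3.12%) and in 6.02% of all 32851. Mlph was printed after its values were seen, at chr1:90914850-90915099 (forward strand), with the E-box in capitals 48 bases before the start.
Mlph: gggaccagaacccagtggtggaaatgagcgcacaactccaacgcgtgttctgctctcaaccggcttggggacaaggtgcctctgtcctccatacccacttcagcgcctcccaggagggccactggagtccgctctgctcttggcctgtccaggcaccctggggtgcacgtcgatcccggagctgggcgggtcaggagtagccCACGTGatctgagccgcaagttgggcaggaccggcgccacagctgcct
A match of these letters is a description and does not show binding.

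The hormone-response genes Foxa1, Areg and Pgr varied widely between mice of the same genotype. Foxa1, the pioneer factor of the estrogen receptor, was read at 265, 2121 and 2271 counts in bBMCtr libraries 1 to 3 and at 3229, 309 and 4224 counts in bBMKO libraries 1 to 3. The low libraries, bBMCtr 1 and bBMKO 2, belong to different genotypes, and the highest ambient library was 14.9-fold above the lowest. Areg, the EGF receptor ligand of ductal growth, was also lowest in those 2 libraries, at 15.7 and 23.8 CPM against 51.2 to 113 CPM in the others. Pgr, the progesterone receptor, was instead highest in bBMKO library 2 at 172 CPM and lowest in bBMCtr library 2 at 26.6 CPM. None of the 3 passed in the main fit (adjusted p = 0.674 for Foxa1, 0.851 for Areg and 0.432 for Pgr), and Areg turned from −0.27 to 0.57 without bBMCtr library 3. Foxa1 was at 0.15 to 1.18 over single left-out libraries and passed in none of these fits. It passed as higher without bBMCtr library 3 and bBMKO library 2 together. Pgr was at 0.29 to 1.16 over single left-out libraries and passed as higher without bBMKO library 3. These genes were singled out after their values were seen.

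**Figure D3:**
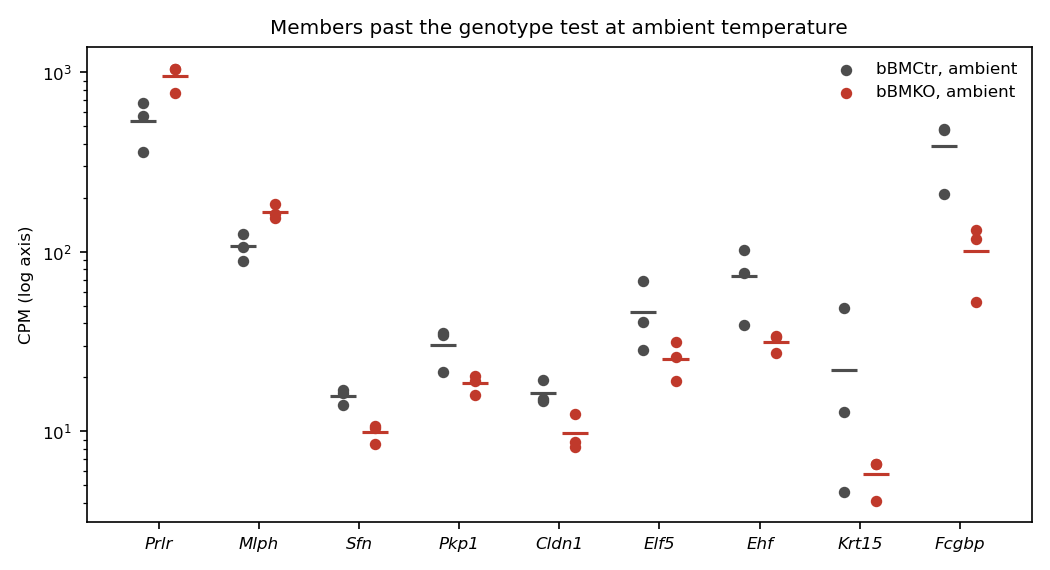
The vertical log axis gives CPM in each ambient library for the 9 members past the genotype test, from the largest positive to the largest negative fold change; points are libraries, 3 per genotype, and bars are means. Prlr and Mlph lie higher in bBMKO, and of the 7 lower members Elf5 and Krt15 overlap between genotypes.

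All 7 basal members had negative log2 fold changes, with a median of −0.72, and 3 of them passed. Sfn and Trp63 were still read in the cold libraries, at 2.55 to 7.46 and 9.81 to 19.2 CPM. Krt5, Krt14 and Krt17 were at 0 to 3 counts there. Sfn was also lower in bBMKO in the cold (log2 fold change −1.17, adjusted p = 0.0014 in edgeR). The cells of origin of Sfn and Trp63 were not tested. Krt5 was read at 34.3, 62.2 and 111 CPM in bBMCtr and at 52.9, 35.3 and 40.0 CPM in bBMKO (log2 fold change −0.70, SE 0.36, adjusted p = 0.28). Its dimer partner Krt14 was at 27.8, 45.9 and 62.5 CPM in bBMCtr and at 36.7, 29.0 and 35.4 CPM in bBMKO (−0.43, SE 0.29, adjusted p = 0.41). For both keratins bBMCtr library 1 lay below the whole bBMKO range, and bBMCtr library 3 was highest. Without bBMCtr library 3 the fold changes were −0.17 for Krt5 (adjusted p = 0.743) and −0.12 for Krt14 (adjusted p = 0.817), and with bBMKO library 2 left out as well they were −0.043 and −0.018. Without bBMCtr library 1 both passed as lower, Krt5 at −1.03 (adjusted p = 0.0919) and Krt14 at −0.70 (adjusted p = 0.199).

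Krt15, a keratin of basal and follicle stem cells, was at 93, 265 and 905 counts in bBMCtr libraries 1 to 3 and at 130, 129 and 89 counts in bBMKO libraries 1 to 3. The 905 counts came from the library with the hair follicle keratins. The log2 fold change was −1.93 (SE 0.76, adjusted p = 0.198) with it and −0.60 (adjusted p = 0.498) without it, and the call was also lost without any 1 of the bBMKO libraries (adjusted p = 0.266 to 0.404). Krt17, at 15.7 to 50.7 CPM over the ambient libraries, had a log2 fold change of −0.82 (SE 0.42, adjusted p = 0.285). Trp63, which encodes p63, the master regulator of basal cells, had a log2 fold change of −0.75 (SE 0.35, adjusted p = 0.248) at an unadjusted p of 0.0566. It passed in DESeq2 (−0.75, adjusted p = 0.177). Without bBMCtr library 3 the fold changes were −0.31 for Krt17 (adjusted p = 0.638) and −0.34 for Trp63 (adjusted p = 0.54), and with bBMKO library 2 left out as well they were −0.24 and −0.31. Without bBMCtr library 1 both passed as lower, Krt17 at −1.15 (adjusted p = 0.156) and Trp63 at −1.04 (adjusted p = 0.141).

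Sfn, the 14-3-3 protein sigma of epithelial cells, was at 14.0, 16.3 and 16.9 CPM in bBMCtr and at 10.7, 8.50 and 10.4 CPM in bBMKO. The genotypes did not overlap, with means of 15.8 ± 1.51 and 9.88 ± 1.21 CPM (SD, n = 3 each) and a log2 fold change of −0.67 (SE 0.15, adjusted p = 0.040). Without bBMKO library 2 it was −0.56 (adjusted p = 0.107), under the fold minimum. Sfn lies across Eno1b on the other strand, and whether counting used the strand is not given in the sources used here. Pkp1, the desmosomal plakophilin, was at 21.5, 35.4 and 34.5 CPM in bBMCtr and at 20.4, 16.0 and 19.1 CPM in bBMKO, again without overlap (−0.72, SE 0.21, adjusted p = 0.0928). The call of Pkp1 was lost without bBMCtr library 2 (−0.57, adjusted p = 0.269).

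The promoters of Krt5, the leading basal member, and of Sfn are shown for the site AACCNGTT of Grainyhead-like factors, the family of the member Grhl2. Its match is in capitals in Sfn, chosen after its values were seen, where it begins 184 bases before the start. Krt5 holds none of the 4 motifs searched. The positions are chr15:101712906-101713155 (reverse strand) and chr4:133602169-133602418 (reverse strand).
Krt5: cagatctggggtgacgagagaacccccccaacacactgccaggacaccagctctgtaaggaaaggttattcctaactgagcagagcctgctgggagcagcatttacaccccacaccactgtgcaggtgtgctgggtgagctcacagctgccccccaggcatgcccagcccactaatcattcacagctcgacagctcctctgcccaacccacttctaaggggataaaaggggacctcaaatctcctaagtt
Sfn: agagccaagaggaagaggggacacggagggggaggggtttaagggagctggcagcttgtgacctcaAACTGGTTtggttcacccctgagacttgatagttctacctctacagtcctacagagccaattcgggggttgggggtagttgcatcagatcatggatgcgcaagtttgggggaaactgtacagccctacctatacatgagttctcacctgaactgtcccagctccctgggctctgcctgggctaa
The site was in 4 of the 32 member entries (12.5%), those of Prom1, Rab25 and Sfn, and in 1.79% of all entries.

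Of the 10 junction genes, 5 had positive and 5 had negative log2 fold changes (median 0.013), and 1 passed. Epcam was read at 87.8, 129 and 187 CPM in bBMCtr and at 162, 123 and 153 CPM in bBMKO (log2 fold change 0.12, SE 0.29, adjusted p = 0.845), with the bBMKO libraries inside the bBMCtr range. Cdh1, E-cadherin, was at 77.9, 139 and 179 CPM in bBMCtr and at 185, 131 and 163 CPM in bBMKO (0.28, SE 0.34, adjusted p = 0.662). The tight junction claudins Cldn3 (0.16), Cldn4 (0.49) and Cldn7 (−0.14), the desmosomal genes Dsp (−0.09), Perp (−0.28) and Pkp3 (−0.46) and the recycling GTPase gene Rab25 (0.19) had adjusted p between 0.510 and 0.906.

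Cldn1 differed from the other claudins. It was at 15.1, 14.8 and 19.3 CPM in bBMCtr and at 8.19, 8.75 and 12.5 CPM in bBMKO, with no overlap (log2 fold change −0.74, SE 0.22, adjusted p = 0.0943). The call was lost without bBMKO library 1 (−0.63, adjusted p = 0.312). In the cold libraries, where most members were near 0, Cldn1 was still read at 5.88 to 12.1 CPM, and its cell of origin was not tested. The promoter of Epcam, the leading junction member, holds none of the 4 motifs and lies at chr17:87635729-87635978 (forward strand).
Epcam: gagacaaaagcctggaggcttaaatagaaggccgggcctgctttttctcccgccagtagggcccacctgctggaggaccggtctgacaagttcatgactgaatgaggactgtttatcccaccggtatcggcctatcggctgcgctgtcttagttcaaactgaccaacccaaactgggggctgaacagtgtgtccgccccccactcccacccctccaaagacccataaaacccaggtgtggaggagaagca

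None of the 8 epithelial regulators and membrane protease genes passed between genotypes at ambient temperature, in edgeR or in DESeq2, and 0 of the 8 had an unadjusted p under 0.05. Spint2, a Kunitz inhibitor of membrane serine proteases, was read at 65.8, 91.7 and 98.4 CPM in bBMCtr and at 89.8, 69.1 and 93.1 CPM in bBMKO (log2 fold change −0.022, SE 0.17, adjusted p = 0.956). Its relative Spint1 had a log2 fold change of 0.31 (SE 0.27), and their target proteases St14 (matriptase) and Prss8 (prostasin) had −0.089 (SE 0.24) and −0.087 (SE 0.47). The epithelial splicing regulators Esrp1 and Esrp2 had −0.017 (SE 0.30) and 0.16 (SE 0.40), the Grainyhead-like factor gene Grhl2 −0.094 (SE 0.35) and the zinc finger gene Ovol1, at 10 to 48 counts, 0.048 (SE 0.61). Prss8 and Esrp2 lie across Kat8 and 1810019D21Rik on the other strand, so their counts may hold reads of those genes. The Spint2 promoter, at chr7:29281978-29282227 (reverse strand), also holds none of the motifs.
Spint2: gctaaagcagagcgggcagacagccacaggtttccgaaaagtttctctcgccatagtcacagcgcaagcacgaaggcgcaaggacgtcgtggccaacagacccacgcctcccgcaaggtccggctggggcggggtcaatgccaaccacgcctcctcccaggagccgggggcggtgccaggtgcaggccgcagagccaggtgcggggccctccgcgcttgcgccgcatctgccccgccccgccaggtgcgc

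The milk genes split into read and unread members. Wap, whey acidic protein, had 0 counts in all 12 libraries, and Csn2, beta-casein, had 0 to 3 counts per library. Neither entered the test. Csn3, kappa-casein, was read at 61.3, 35.0 and 106 CPM in bBMCtr and at 47.4, 69.3 and 43.0 CPM in bBMKO, with overlapping genotypes (log2 fold change −0.34, SE 0.36, adjusted p = 0.609). Ltf, lactoferrin, an iron-binding protein of milk that neutrophils also make, was at 38.4, 35.1 and 5.76 CPM in bBMCtr and at 72.0, 59.1 and 48.0 CPM in bBMKO. The genotypes of Ltf did not overlap, but it did not pass the test (log2 fold change 1.17, SE 0.69, adjusted p = 0.34, and 0.71 without bBMCtr library 3), and bBMCtr library 3, highest for most members, was lowest for Ltf. Csn1s1, alpha-casein, no member and singled out after its values were seen, was read at 9, 11 and 30 counts in bBMCtr and at 0, 0 and 1 count in bBMKO, which was under the minimum for the test.

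The promoters of Csn2, Wap and Ltf are shown because their genes share a milk role and differ in level. Capitals mark TTCNNNGAA, the site of STAT5, which acts downstream of the prolactin receptor.
Csn2: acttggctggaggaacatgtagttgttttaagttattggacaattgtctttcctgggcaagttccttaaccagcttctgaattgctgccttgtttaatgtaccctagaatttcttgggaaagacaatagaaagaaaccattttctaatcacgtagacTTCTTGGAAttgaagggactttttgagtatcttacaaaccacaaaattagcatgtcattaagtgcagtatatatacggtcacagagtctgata
Wap: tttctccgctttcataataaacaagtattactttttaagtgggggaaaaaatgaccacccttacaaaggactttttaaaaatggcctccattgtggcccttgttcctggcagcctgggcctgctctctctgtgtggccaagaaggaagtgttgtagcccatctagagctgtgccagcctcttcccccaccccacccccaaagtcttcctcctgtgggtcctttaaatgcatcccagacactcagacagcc
Ltf: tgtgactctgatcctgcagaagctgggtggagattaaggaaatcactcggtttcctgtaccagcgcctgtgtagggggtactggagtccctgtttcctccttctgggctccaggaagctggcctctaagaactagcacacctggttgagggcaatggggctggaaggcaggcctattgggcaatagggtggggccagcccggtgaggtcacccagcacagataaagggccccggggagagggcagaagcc
Csn2 (chr5:87699426-87699675, reverse strand) holds the match 93 bases before the start and was at 0 to 3 counts. Wap (chr11:6638650-6638899, reverse strand) and Ltf (chr9:111019042-111019291, forward strand) hold none in this window. The site was in 4 of the 32 member entries (12.5%), those of Cldn7, Csn2, Prlr and Rab25, and in 7.02% of all entries. The forkhead site TGTTTAC was in 2 of the 32 (6.25%), those of Foxa1 and Prlr, and in 3.17% of all entries.

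To compare the members within a library, their CPM were divided by those of Epcam. These ratios were chosen after the values were seen and are given as a description. Fcgbp over Epcam was 2.39, 3.70 and 2.57 in bBMCtr and 0.822, 0.424 and 0.766 in bBMKO. Ehf over Epcam was 0.447, 0.592 and 0.551 in bBMCtr and 0.209, 0.222 and 0.219 in bBMKO. Both ratios were separated by genotype with less spread than the levels themselves. Elf5 over Epcam was 0.322, 0.316 and 0.369 in bBMCtr and 0.195, 0.154 and 0.168 in bBMKO, so that the overlap seen in its levels was gone. Krt5 over Epcam was 0.391, 0.481 and 0.596 against 0.327, 0.286 and 0.261, and Prlr over Epcam was 4.12, 4.43 and 3.60 against 6.43, 6.25 and 6.84. Foxa1 and Csn3 overlapped on this scale too. With the mean of the other epithelial genes as a covariate among the ambient libraries, 1 member was higher (Prlr) and 10 were lower. Krt5 (−0.76, adjusted p = 0.0714), Krt17 and Trp63 had joined the 7, and Mlph had lost its call (0.57, under the fold minimum). In that fit 6.37% of all genes were called.

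**Figure D4:**
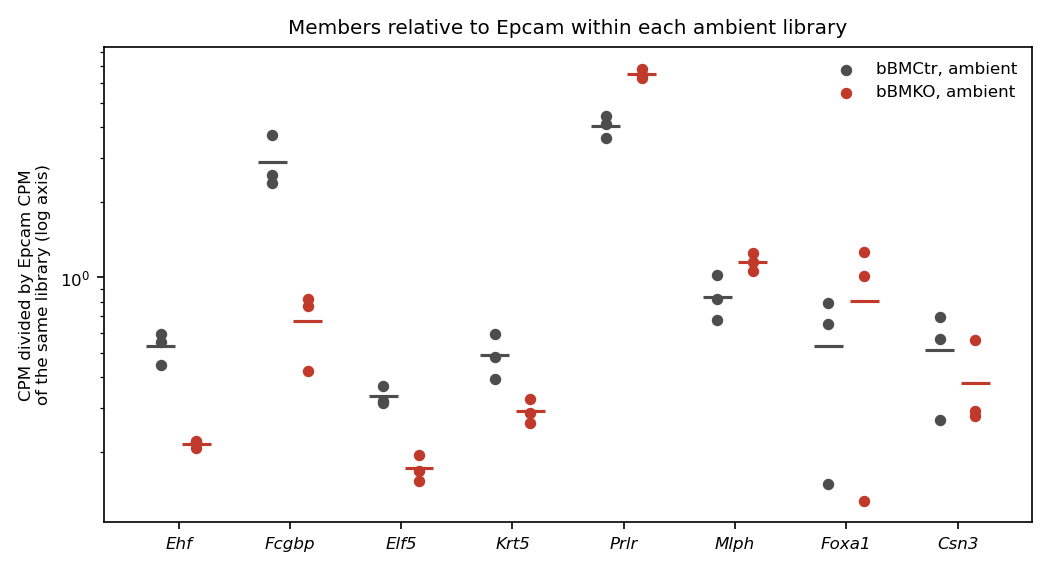
The vertical log axis gives the CPM of a member divided by the CPM of Epcam in the same ambient library; points are libraries, 3 per genotype, and bars are means. Ehf, Fcgbp, Elf5 and Krt5 lie lower and Prlr and Mlph higher in all 3 bBMKO libraries, while Foxa1 and Csn3 overlap.

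Other lists of epithelial genes were read by the same rule. None of the 22 tested genes of a second list of epithelial genes passed at ambient temperature, in edgeR or in DESeq2, with 0 at an unadjusted p under 0.05 and a median of 0.14. Of 23 tested genes of mammary hormone action and milk, 2 were higher and 1 lower. Tnfsf11 (RANKL), the ligand through which progesterone acts on the duct and which lymphocytes also make, was at 9.07, 17.0 and 7.75 CPM in bBMCtr and at 1.88, 0.814 and 3.55 CPM in bBMKO (log2 fold change −2.43, SE 0.53, adjusted p = 0.0337). The neuregulin receptors Erbb3 (0.62, adjusted p = 0.166) and Erbb4 (0.82, adjusted p = 0.0462) were higher, and Erbb3 lost its call without bBMCtr library 1 (0.40), bBMKO library 1 (0.56) or bBMKO library 3 (0.54). Erbb4 was at 3.35 to 6.81 CPM in the ambient libraries and at 8.4 to 15.0 CPM in the cold libraries. Its cells of origin were not tested. Of 15 myoepithelial and basement adhesion genes, the 3 that passed were lower: Col17a1 (−0.94), Lama3 (−0.78) and Lamb3 (−0.76), which build hemidesmosomes and laminin-332. Without bBMCtr library 3 these were −0.38, −0.36 and −0.32 and did not pass, and without bBMKO library 1 they were −1.02, −0.83 and −0.70 and did not pass either. Col17a1 was also lost without bBMCtr library 2 (−1.04), bBMKO library 2 (−0.88) or bBMKO library 3 (−0.92), and Lama3 without bBMKO library 2 (−0.70).

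Markers of other tissues varied between the ambient libraries. Of the 7 tested skin and hair markers, Krt10, Sbsn and Krt79 were higher and Lgals7 lower, and Lgals7 did not pass without bBMCtr library 3 (−0.75), bBMKO library 1 (−1.62) or bBMKO library 2 (−1.26). Krt10 did not pass without bBMCtr library 3 (0.57) or bBMKO library 1 (0.60), nor Sbsn without bBMCtr library 1 (0.57) or bBMKO library 2 (0.56), while Krt79 (2.28, adjusted p = 0.00254) passed under all 19 alternatives run. The whole skin list summed to 29.5, 37.2 and 109 CPM in bBMCtr and to 49.4, 57.5 and 45.8 CPM in bBMKO, and Krt1 was at 1 to 4 counts. The 13 lymphocyte and lymph node markers summed to 1570, 594 and 35.5 CPM in bBMCtr and to 29.6, 59.0 and 446 CPM in bBMKO, and the 14 muscle markers to 58.0, 1839 and 4852 CPM in bBMCtr and to 2325, 2391 and 90.6 CPM in bBMKO. None of these 27 genes passed in edgeR or DESeq2 or had an unadjusted p under 0.05. With the muscle marker mean as a covariate all 9 members still passed and Krt7 joined as higher. In that fit 11.2% of all genes were called. With the lymph node marker mean Mlph did not pass (0.55) and the other 8 did. Krt5, Krt17 and Trp63 joined as lower and Ltf as higher, with 7.09% of all genes called.

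Between temperatures, nearly the whole set fell. In bBMCtr 40 of the 41 tested members were lower in the cold, against 11.3% of all genes lower and 3.48% higher. In bBMKO 39 were lower, against 12.4% lower and 6.41% higher. All 41 fitted fold changes were negative in both genotypes. The members' median log2 fold changes were −7.07 and −7.25, or −6.89 and −6.86 with the genes that had no cold counts set at their bounds, and those of all genes were 0.0010 and −0.021. A member that passed the filter only through its ambient level had to differ here: 15 of the 41 tested were above the FPKM minimum in no cold library. The summed members fell to 87.8 to 112 CPM in the cold libraries. Because Xist and the Y-linked genes separate the same libraries, this is as much a comparison of libraries with and without Xist as of temperatures. The ages given, 6 weeks at ambient temperature and 10 to 12 weeks for cold acclimation, separate them as well and cannot be told apart from temperature.

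What remained in the cold differed among the members. Ovol1 had no cold count and was at least 29.8-fold lower in bBMCtr and at least 26.9-fold lower in bBMKO, against a floor of 3 counts over the group. Krt15 had no count in cold bBMKO and was at least 101-fold lower there. Krt5 was at 0, 0 and 1 count in cold bBMCtr and 1, 3 and 1 in cold bBMKO, and Elf5 at 0 or 1 count in each cold library. Trp63 in contrast kept 10.7 to 19.2 CPM in cold bBMCtr and 9.81 to 17.1 CPM in cold bBMKO, and passed as lower in bBMCtr only (−1.07, adjusted p = 0.0706), the difference between genotypes in this change not passing (adjusted p = 0.74). Cldn1 passed in neither genotype (−0.49, adjusted p = 0.177, and −0.20, adjusted p = 0.535). Prlr was still read at 9.60 to 15.8 CPM in cold bBMCtr and at 28.9 to 47.8 CPM in cold bBMKO.

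In the cold, where little of the ductal signal was left, 3 of 41 members were higher in bBMKO and 7 were lower, against 9.67% and 13.1% of all genes. Prlr (log2 fold change 1.76, SE 0.29, adjusted p = 0.00267), Krt19 (1.65, SE 0.42, adjusted p = 0.0154) and Esrp2, at 0 to 2 counts in bBMCtr and 5 to 10 in bBMKO, were higher. Ehf (−3.76, SE 0.41, adjusted p = 0.000417), St14 (−2.76), Epcam (−2.61), Pkp3 (−1.29), Spint2 (−1.23), Sfn (−1.17) and Spint1 (−1.04) were lower. All 13 lymph node markers were lower in cold bBMKO. They summed to 834 to 1379 CPM in cold bBMCtr and to 40.6 to 84.9 CPM in cold bBMKO. Of 22 genes of the second epithelial list, 10 were lower. Whether the members' differences share a source with these markers was not tested. With the lymph node marker mean as a covariate, added after seeing the data, 7 of the 10 calls held. That mean did not overlap between the cold genotypes, so the fit cannot tell lymph node content from genotype. Krt19 (0.90, adjusted p = 0.299), Pkp3 (−1.27, adjusted p = 0.294) and Esrp2 (2.11, adjusted p = 0.34) did not pass in that fit, where 9.41% of all genes were called.

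The genotype difference itself differed between temperatures for 4 of the 41 members, all lower in the cold than at ambient temperature, against 0.597% of all genes lower and 0.169% higher. They were Ehf (log2 difference of −2.56, SE 0.51, adjusted p = 0.137), Epcam (−2.73, SE 0.61, adjusted p = 0.193), Spint2 (−1.21, SE 0.25, adjusted p = 0.147) and St14 (−2.67, SE 0.39, adjusted p = 0.0338). St14 was at 42.2 to 76.3 CPM in all ambient libraries, at 7.14, 9.90 and 5.07 CPM in cold bBMCtr and at 1.23, 0.861 and 1.17 CPM in cold bBMKO. Spint2 was at 20.01, 22.7 and 18.5 CPM in cold bBMCtr and at 7.70, 10.2 and 8.10 CPM in cold bBMKO, and Epcam at 31 to 49 counts in cold bBMCtr and 1 to 10 counts in cold bBMKO. The cold genotypes did not overlap for any of the 4, while the ambient genotypes overlapped for all but Ehf. The 4 were selected by the interaction test on these same values, so this describes them and is no further result. In the cold, 7105 of the 15413 genes tested had an unadjusted p under 0.05 between genotypes in edgeR. The call of St14 held under all 21 alternatives run, at −2.94 to −2.22. Ehf, Epcam and Spint2 each lost the call when ambient bBMCtr library 2, ambient bBMKO library 1 or 3, cold bBMCtr library 1 or 2 or cold bBMKO library 1 or 3 was left out (adjusted p = 0.265 to 0.501), Epcam also without cold bBMCtr library 3 (adjusted p = 0.282) and Ehf without cold bBMKO library 2 (adjusted p = 0.369). Leaving out ambient bBMCtr library 1 raised the count to 12 members, with 11.5% of all genes called in that fit.

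**Figure D5:**
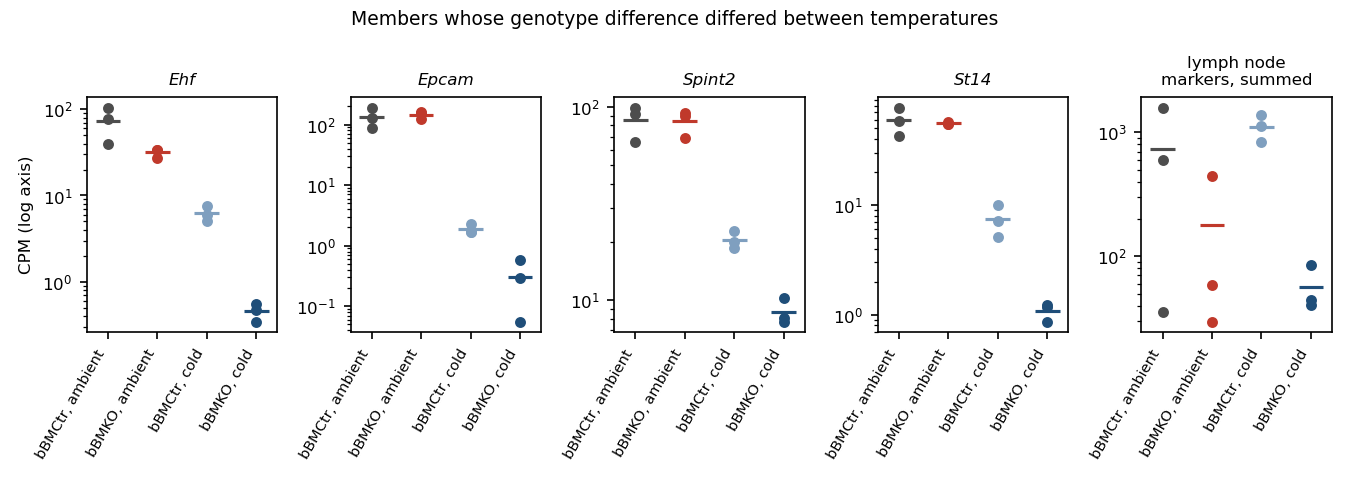
Each panel gives, on a log axis in CPM, the 12 libraries of a member whose genotype difference differed between temperatures, with the summed lymph node markers on the right; points are libraries, 3 per group, and bars are means. In the cold the bBMKO points lie under the bBMCtr points in all 5 panels.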

How the data were processed

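RNA of inguinal white adipose tissue was sequenced from 12 mice, 1 library each. STAR (genome mm10) and HTSeq-count (GENCODE genes, uniquely placed reads) gave the counts that the authors deposited. The authors also deposited log2 values of FPKM with 0.1 added. DESeq2, limma and edgeR are named in the submitters' processing notes too. Tool versions, the annotation release and the strand setting of the counting were not given in the sources used here. Keratin paralogs may share reads.

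The 43 members and all gene lists were chosen with earlier results of these data known. Of 24091 genes, 15413 exceeded 0.1 FPKM in 50% or more of the libraries and were tested, among them 41 members. After TMM scaling, edgeR 4.0.16 (R 4.3.3) was run on the counts (glmQLFit, glmQLFTest) with all 12 libraries and 1 term per group. Calls required a fold change over 1.5, p under 0.05 and Benjamini-Hochberg adjusted p under 0.25, adjusted over all genes. Standard errors are the fold change over the root of F, and the prior count for log2 CPM was 2. Named were the members with the highest FPKM of each list and all that passed, with the rest by range or fold change; genes singled out otherwise are said to be. From the other lists, genes that passed were named.

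Alternatives were DESeq2 1.42.0, RLE factors, library size alone, no filter, edgeR's filter, only the compared groups, limma 3.58.1 on the deposited log2 values, a replicate block, a strict adjusted p, leaving out libraries, and covariates of epithelial, lymph node and muscle markers. The fit was tested on simulated data. Libraries of a group differed by a chi-square per gene of 16.1 or more, so none was counted as a duplicate. Mice are the replicates. Of the 43 members, 16 had no promoter entry in the RefSeq table.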

Additional observations from a re-analysis of the deposited data

Results flagged for a closer look

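For 4 members the genotype difference in the cold differed from that at ambient temperature by the interaction test of edgeR. The difference of the log2 fold changes was −2.56 for Ehf, −2.73 for Epcam, −1.21 for Spint2 and −2.67 for St14. The lymph node markers also differed between the cold genotypes. With their mean as a covariate, added after seeing the data, the same 4 members passed. That mean separated the cold genotypes, so this fit cannot tell lymph node content from genotype there. Sex-linked expression and the ages given cannot be told apart from temperature in these interactions.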

How the results depend on the processing

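The count of members past the genotype test at ambient temperature was 9, with 3.88% of all genes higher and 4.75% lower. It was 4 at an adjusted p under 0.05 without a fold change minimum, with 4.07% of all genes called. Leaving out single libraries gave 4 to 11, with 3.41% to 13.6% of all genes called. The count was 4 without bBMKO library 1 (3.41%) and 11, all lower, without bBMCtr library 1 (5.17%). The interaction count was 4, with 0.597% of all genes lower and 0.169% higher. It was 2 under the replicate block, with 0.37% of all genes called, and 1 at the strict adjusted p, with 0.156%. When single libraries were left out it was 1 to 12, with 0.266% to 11.5%. The counts in the cold and between temperatures stayed within 1.5 times under all alternatives run. The scaling by library size alone gave 1 higher and 10 lower members at ambient temperature in place of 2 and 7, with 10.3% of all genes called. Replicate numbers did not pair the mice: deviations of same-numbered ambient libraries correlated at −0.685, −0.367 and −0.699. The replicate block gave 9 ambient calls, with 6.82% of all genes called in that fit. Of these 9, Ltf and Trp63 were not among the main calls, and Elf5 and Krt15 of the main calls were lost.

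Members that had not passed changed sign in some settings. Krt8 was at −0.00441 with library size alone, at −0.12 with the lymph node covariate and at −0.088 to 0.56 over the left-out libraries. Epcam was at −0.010 with that covariate and at −0.12 to 0.44 over the left-out libraries. Areg was at 0.22 with the muscle covariate, at 0.91 without bBMCtr library 3 and bBMKO library 2 and at −0.73 to 0.57 over single left-out libraries. Cdh1 was at −3.48e-05 to 0.57 and Csn3 at −0.64 to 0.16 over left-out libraries. The causes were not tested.

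With 3 mice per group precision is limited. Members near 0 counts in the cold carry fold changes that depend on edgeR's default prior count in the fit. The prior count of 2 applied to log2 CPM only.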
